A study of Coturnix japonica with 24 samples.

Results

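Transcripts of 7 genes that mark tanycytes and radial glia (FABP7, VIM, NES, SLC1A3, SOX2, PTN and HES5) were followed in the mediobasal hypothalamus of Japanese quail (Coturnix japonica) in short and long days. Their members were all probe sets of an Affymetrix chicken array whose only gene symbol is one of these names, which gave 11 of the 38439 probe sets that are not controls. FABP7, VIM, NES and SOX2 had 1 probe set each, SLC1A3 and HES5 had 2, and PTN had 3, and 10 of the 11 passed a filter that removed the lowest 25% by mean. The birds were males of 8 weeks that had spent 4 weeks in short days, with lights on for 6 h and off for 18 h. For 2 more weeks they stayed there or went to long days, with lights on for 20 h and off for 4 h. Tissue of 6 birds was taken every 4 h at 6 zeitgeber times (ZT, read here as hours after lights on). RNA of 3 birds was pooled for each array, which made 2 arrays a group, 12 groups and 12 arrays a photoperiod. All groups share the 4 weeks in short days, and every value is the mean of a pool and not of 1 bird.

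Tanycytes are elongated glial cells that line the floor and lower walls of the third ventricle and send a process toward the capillaries of the median eminence. They keep features of radial glia, the stem-like cells of the developing brain, among them brain fatty acid-binding protein, vimentin and nestin filaments, and SOX2. Cells of this ventricular wall produce the deiodinase that makes active thyroid hormone in long days, and in quail the glial endfeet around gonadotropin-releasing hormone terminals retract when day length increases. The 7 genes are markers and not a complete definition: astrocytes also make SLC1A3 and FABP7, vessels also make VIM, and PTN has several sources. In bulk tissue, fewer cells of a type and less RNA per cell cannot be told apart.

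The arrays numbered 1 (array set 1) were brighter than those numbered 2 (array set 2) in 12 of 12 groups, by 1.23 to 1.85 times in the median deposited intensity, so each array was centred on its median and the sets are also given apart. Levels below are these centred intensities in array units, and each change is the long-day mean minus the short-day mean of log2(intensity + 1.497), with limma's moderated standard error (SE). That scale understates the change of dim genes. A test was passed at a Benjamini-Hochberg adjusted p under 0.05 over the 28829 probe sets tested. Background was taken as the 95th percentile of 746 probe sets without the chicken prefix and lay at 15.4 to 21.3 on the arrays. For the GAPDH control the 3' signal stood over the 5' signal by a log2 ratio of 0.0623 to 0.238 in set 1 and 0.256 to 0.368 in set 2, so the sets did not overlap. Of 12 hypothalamic marker genes tested, 7 were above background on 24 of 24 arrays, among them NKX2-1, a transcription factor of the ventral hypothalamus, POMC, AGRP and NPY. The others were GHRH (21 of 24), OTP (13), GNRH1 (9), TRH (6) and SIM1 (6). Precision is limited by how many arrays there are. Since a chicken probe can bind a quail transcript less well, levels of different genes are not compared as amounts of transcript. The sums and ratios of intensities given below describe array signal only.

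The photoperiods were first compared over the 6 times as a whole. FABP7, which encodes the brain fatty acid-binding protein that carries long-chain fatty acids inside radial glia and tanycytes, was lower in long days. Among short-day arrays its level ran from 285 over a median of 431 to 529, and among long-day arrays from 128 over a median of 214 to 331. Only 2 long-day arrays exceeded the lowest short-day array, and 1 short-day array lay under the highest long-day one. The means were 416 ± 70.4 in short days and 220 ± 63.0 in long days (SD, n = 12), a log2 change of -0.95 ± 0.141 (95% confidence interval -1.24 to -0.66, limma adjusted p = 0.00099), or 1.93-fold lower. FABP7 was the 1 gene of the 7 that passed, against 0.132% of the 28829 probe sets tested, with 0.0555% lower and 0.0763% higher in long days. It ranked 22 by p among all of them.

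The FABP7 difference was also taken in each array set, by a fit of photoperiod and time with 1 array a group. In set 1 the mean fell from 397 ± 47.6 to 253 ± 67.0 (SD, n = 6), a log2 change of -0.68 ± 0.145 with a limma adjusted p of 0.13. In set 2 the mean fell from 436 ± 87.7 to 186 ± 39.3, a change of -1.22 ± 0.175 with a limma adjusted p of 0.0064. The difference between those changes was itself -0.54 ± 0.235, with a limma adjusted p of 0.88 over all probe sets (unadjusted 0.032), so a difference between the sets was not shown. Without centring the change was -0.98 and the call was lost (limma adjusted p = 0.46). The log2 3' to 5' ratio of the ACTB control was 1.68 ± 0.168 in short days and 1.84 ± 0.153 in long days (SD, n = 12), while that of GAPDH was 0.211 ± 0.106 and 0.225 ± 0.0992. The part of RNA quality in the FABP7 difference was not tested.

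**Figure D1:**
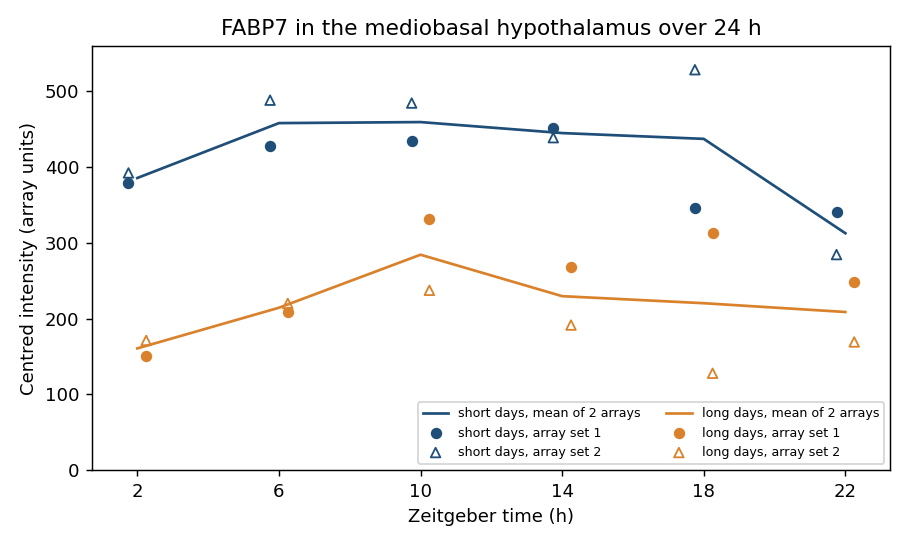
FABP7 centred intensity (array units, vertical axis) against zeitgeber time (h, horizontal axis) in short days (blue) and long days (orange), with filled circles for array set 1, open triangles for array set 2 and lines through the mean of 2 arrays. At each of the 6 times both long-day arrays sit under both short-day arrays, and the 2 long-day arrays at ZT18 (313 and 128) are farthest apart.

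FABP7 was then taken through the day, array by array. In short days the 2 arrays stood at 379 and 392 at ZT2, at 428 and 488 at ZT6, and at 434 and 485 at ZT10. Later in the short-day cycle they stood at 451 and 439 at ZT14, at 346 and 529 at ZT18, and at 341 and 285 at ZT22. Among short-day times ZT22 was the low point, and the other 5 lay close together. In long days the arrays stood at 150 and 171 at ZT2, at 209 and 220 at ZT6, and at 331 and 237 at ZT10. They stood at 268 and 192 at ZT14, at 313 and 128 at ZT18, and at 248 and 169 at ZT22. The lowest long-day mean was thus at ZT2 and the highest at ZT10.

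At all 6 times both long-day arrays of FABP7 lay below both short-day arrays, a separation found in 0.0486% of the probe sets tested. At ZT2 the log2 change was -1.26, and at ZT6 and again at ZT18 it was -1.09. It was -0.97 at ZT14, -0.71 at ZT10 and -0.60 at ZT22, each with an SE of 0.345. With 2 arrays against 2, none of these passed over all probe sets in limma (adjusted p from 0.80 to 1), although 4 had an unadjusted p under 0.05, at ZT2, ZT6, ZT14 and ZT18. The sizes leaned on single arrays at ZT10, ZT14, ZT18 and ZT22. At ZT14 leaving out 1 array moved the change between -1.21 and -0.73. At ZT18 the change was -1.73 without the long-day array at 313 and -0.45 without the one at 128. At ZT10 it was -0.47 without the long-day array at 237, and at ZT22 it was -0.33 without the one at 169. Ordered by mean, the groups ran from short-day ZT10 (459), ZT6 (458), ZT14 (445), ZT18 (437), ZT2 (386) and ZT22 (313) to long-day ZT10 (284), ZT14 (230), ZT18 (220), ZT6 (214), ZT22 (209) and ZT2 (161). All neighbours in that order overlapped between their arrays except short-day ZT2 and short-day ZT22, where both arrays of the first lay above both of the second.

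Within a photoperiod FABP7 did not pass a test of time of day. A 24 h cosine had a log2 amplitude of 0.24 ± 0.13 with its peak at 10.5 h in short days and of 0.27 ± 0.13 with its peak at 11.6 h in long days (limma adjusted p = 1 for each). Free means at 6 times gave a limma adjusted p of 1 in either photoperiod, and the interaction of photoperiod and time gave 1 as well (unadjusted p = 0.75). With 2 arrays a group, no course over the day and no change of the photoperiod difference with time was shown.

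VIM and NES encode vimentin and nestin, the intermediate filament proteins that stiffen the processes of radial glia and tanycytes. VIM ran from 2740 over a median of 3240 to 5060 in short days and from 1990 over 2940 to 3880 in long days. The photoperiods overlapped widely, since 9 of 12 long-day arrays exceeded the lowest short-day one. Its means were 3490 ± 710 and 3010 ± 576 (SD, n = 12), a change of -0.22 ± 0.094 that did not pass (limma adjusted p = 0.87, unadjusted 0.031), at -0.24 in set 1 and -0.20 in set 2. The interval of -0.41 to -0.022 leaves out a change as large as that of FABP7.

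The lower VIM values of long days came late in the cycle. At ZT18 the short-day arrays stood at 5060 and 3472 and the long-day arrays at 2174 and 2590, a change of -0.82 ± 0.231 (limma adjusted p = 1, unadjusted 0.0017). At ZT22 they stood at 3049 and 3735 in short days against 1989 and 2919 in long days, a change of -0.49 ± 0.231 (limma adjusted p = 1, unadjusted 0.047). Leaving out 1 array moved the ZT22 change between -0.76 (without the long-day array at 2919) and -0.209 (without the one at 1989). At the 4 earlier times the arrays of the photoperiods overlapped, with changes from -0.14 to 0.22. The interaction test of VIM had an unadjusted p of 0.053 and a limma adjusted p of 1, so a difference limited to late hours was not shown.

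NES was dim but above background on 21 of 24 arrays. It ran from 15.8 over a median of 34.7 to 47.8 in short days and from 14.7 over 28.8 to 46.6 in long days, so the photoperiods overlapped on nearly their whole range. The change was -0.30 ± 0.218 (interval -0.75 to 0.15, limma adjusted p = 0.98), at -0.21 in set 1 and -0.39 in set 2. As with VIM, the lowest long-day mean was at ZT18, where long-day arrays stood at 14.7 and 27.0 against 39.8 and 47.0 in short days (change -1.06 ± 0.533, limma adjusted p = 1). The array at 14.7 lay under its background of 17.4, so that change rests in part on a value at the floor. At ZT22, where VIM was lower in long days, the NES change was 0.085 ± 0.533. NES also had both long-day arrays under both short-day ones at ZT10, and at the other 4 times its arrays overlapped. The share of all probe sets that separate at a single time was not counted. With 2 arrays a group, such separations can often arise by chance. They are therefore only described, for NES and for the other genes.

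**Figure D2:**
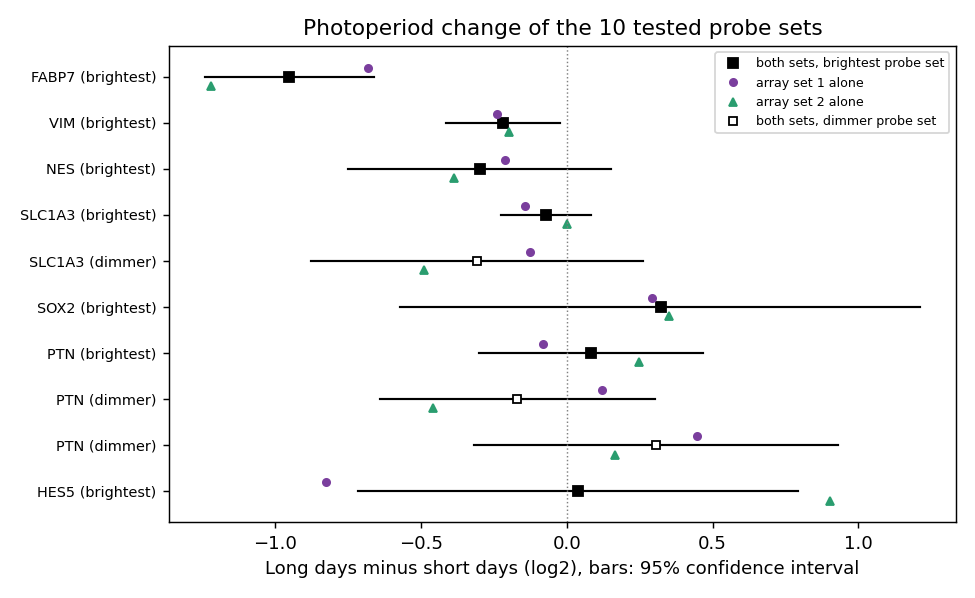
Photoperiod change (log2, long days minus short days, horizontal axis) of the 10 tested probe sets with 95% confidence intervals from both array sets (squares, filled for the brightest probe set of a gene and open for dimmer ones), with set 1 alone as circles and set 2 alone as triangles. FABP7, at -0.95, is the farthest from 0, VIM is the other probe set whose interval leaves out 0, and the sets lie farthest apart for HES5 (-0.82 and 0.901).

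SLC1A3 encodes the glutamate and aspartate transporter GLAST, a marker shared by tanycytes, radial glia and astrocytes. Its brighter probe set was the steadiest of all: it ran from 2180 over a median of 2450 to 2970 in short days and from 2080 over 2370 to 2660 in long days. The change was -0.070 ± 0.075 (limma adjusted p = 0.99), and the interval of -0.23 to 0.085 bounds any photoperiod difference of this probe set to a small one. Its direction was not settled, since the change was 0.0016 after quantile normalization and 0.0022 in set 2 alone. At ZT2 and ZT6 both long-day arrays lay below both short-day arrays, with changes of -0.14 and -0.13 that did not pass (limma adjusted p = 1). The cosine amplitude was 0.034 ± 0.069 in short days and 0.037 ± 0.069 in long days.

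The dimmer probe set of SLC1A3 behaved differently on the arrays of set 2. In set 1 it ran from 1910 to 2760, and in set 2 from 320 to 2580, with 7 of 12 set 2 arrays below every set 1 array. The lowest were the set 2 arrays of long-day ZT14 (320), short-day ZT10 (526) and long-day ZT2 (571), on which the brighter probe set stood at 2208, 2183 and 2449. On those arrays the log2 3' to 5' ratio of ACTB was 2.21, 2.00 and 1.74, and that of GAPDH was 0.37, 0.30 and 0.26. The ACTB ratio ran from 1.49 to 2.00 in set 1 and from 1.58 to 2.21 in set 2. For GAPDH the set 2 ratio ran from 0.256 to 0.368. Set 2 arrays that did not drop included long-day ZT10 (2316), with ratios of 1.86 and 0.346. Short-day ZT2 (2584), another of them, had 1.62 and 0.256. Whether RNA quality had a part in the low values was not tested. The photoperiod change of this probe set was -0.31 ± 0.274 (limma adjusted p = 0.98), and leaving out 1 array moved it between -0.57 and -0.049.

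**Figure D3:**
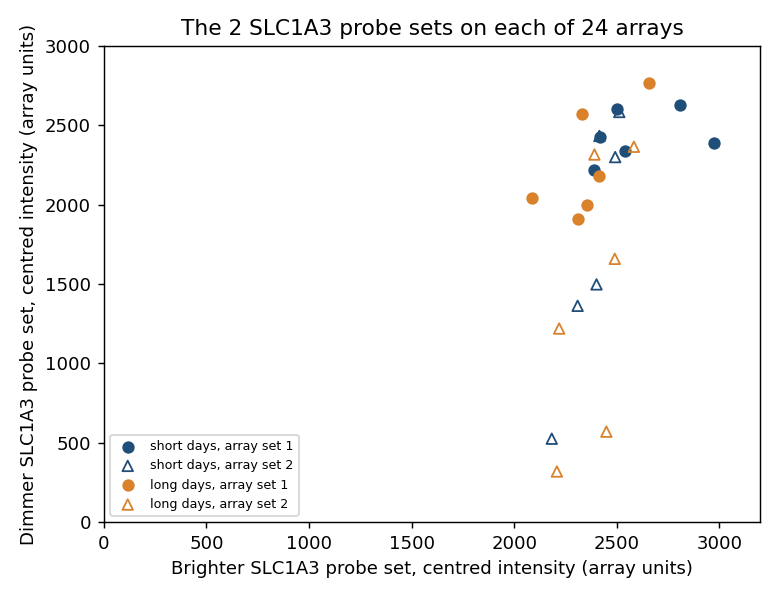
Centred intensity (array units) of the dimmer SLC1A3 probe set (vertical axis) against the brighter one (horizontal axis) on 24 arrays, with filled circles for array set 1, open triangles for array set 2, blue for short days and orange for long days. The brighter probe set stays between 2080 and 2970, while the dimmer one drops to 320 on set 2 arrays of both photoperiods.

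SOX2 and HES5 encode transcription factors that keep radial glia undifferentiated, SOX2 as an activator and HES5 as a repressor that Notch signalling turns on. SOX2 was above background on 13 of 24 arrays, 10 of set 1 and 3 of set 2, and they were 5 of 12 from short days and 8 of 12 from long days. It ran from 1.51 over a median of 11.8 to 29.7 in short days and from 1.13 over 18.6 to 30.5 in long days. Its change was 0.32 ± 0.430 (interval -0.57 to 1.21, limma adjusted p = 0.99), at 0.29 in set 1 and 0.35 in set 2. Leaving out 1 of the short-day ZT6 arrays moved it to 0.59 (set 1) or 0.053 (set 2), and a pseudocount of 16 gave 0.145. That interval is wide enough to hold an upward change as large as the downward one of FABP7.

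The brighter HES5 probe set was above background on 14 of 24 arrays, 7 in each photoperiod, and the dimmer one on 0 of 24. The latter fell under the filter on low values and was not tested. The brighter ran from 2.35 over a median of 18.9 to 36.1 in short days and from 3.46 over 18.5 to 37.8 in long days, with means of 18.1 in each. Its change was 0.038 ± 0.364 (interval -0.72 to 0.79, limma adjusted p = 1). The array sets went opposite ways, with -0.82 in set 1 (23.4 ± 6.61 in short days and 13.7 ± 6.29 in long days, SD, n = 6) and 0.901 in set 2 (12.8 ± 8.13 and 22.6 ± 9.55). That difference between the sets of 1.73 ± 0.652 did not pass over all probe sets (limma adjusted p = 0.88, unadjusted 0.015), and 0 of 28829 probe sets passed this test. The 2 long-day arrays at ZT14 stood at 3.46 and 37.8, the lowest and the highest level of HES5 in long days.

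PTN encodes pleiotrophin, a secreted growth factor that binds the receptor PTPRZ1 on glia and their precursors. Its brightest probe set ran from 71.4 over a median of 173 to 314 in short days and from 99.9 over 170 to 259 in long days. The change was 0.083 ± 0.186 (interval -0.301 to 0.47, limma adjusted p = 0.99), at -0.080 in set 1 and 0.25 in set 2. The direction also turned when the set 2 array of short-day ZT2 (98.0) or of short-day ZT18 (71.4) was left out. Set 2 arrays of this probe set were low, with 7 of 12 below every set 1 array.

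In PTN the arrays of the photoperiods separated in opposite directions at ZT6 and ZT10, which is only described here. At ZT6 short-day arrays stood at 314 and 204 and long-day arrays at 153 and 99.9, a change of -1.02 ± 0.455 (limma adjusted p = 1, unadjusted 0.034). At ZT10 short-day arrays stood at 145 and 112 and long-day arrays at 221 and 259, a change of 0.90 ± 0.455 (limma adjusted p = 1, unadjusted 0.060). The interaction test, which asks for such a turn, had an unadjusted p of 0.095 and a limma adjusted p of 1, so a turn was not shown. A dimmer PTN probe set, above background on 21 of 24 arrays, had a change of -0.17 ± 0.228, with -0.62 at ZT6 and 0.41 at ZT10. At ZT14, ZT18 and ZT22 it was at -0.72, -0.74 and 0.67, opposite in sign to the brightest (0.18, 0.56 and -0.24). Its long-day arrays lay below its short-day ones at ZT6, ZT14 and ZT18, while at ZT10 the arrays overlapped. The dimmest, above background on 4 of 24, had a change of 0.31 ± 0.301. It went the other way from the brightest at ZT6 (1.17) and ZT10 (-0.28).

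**Figure D4:**
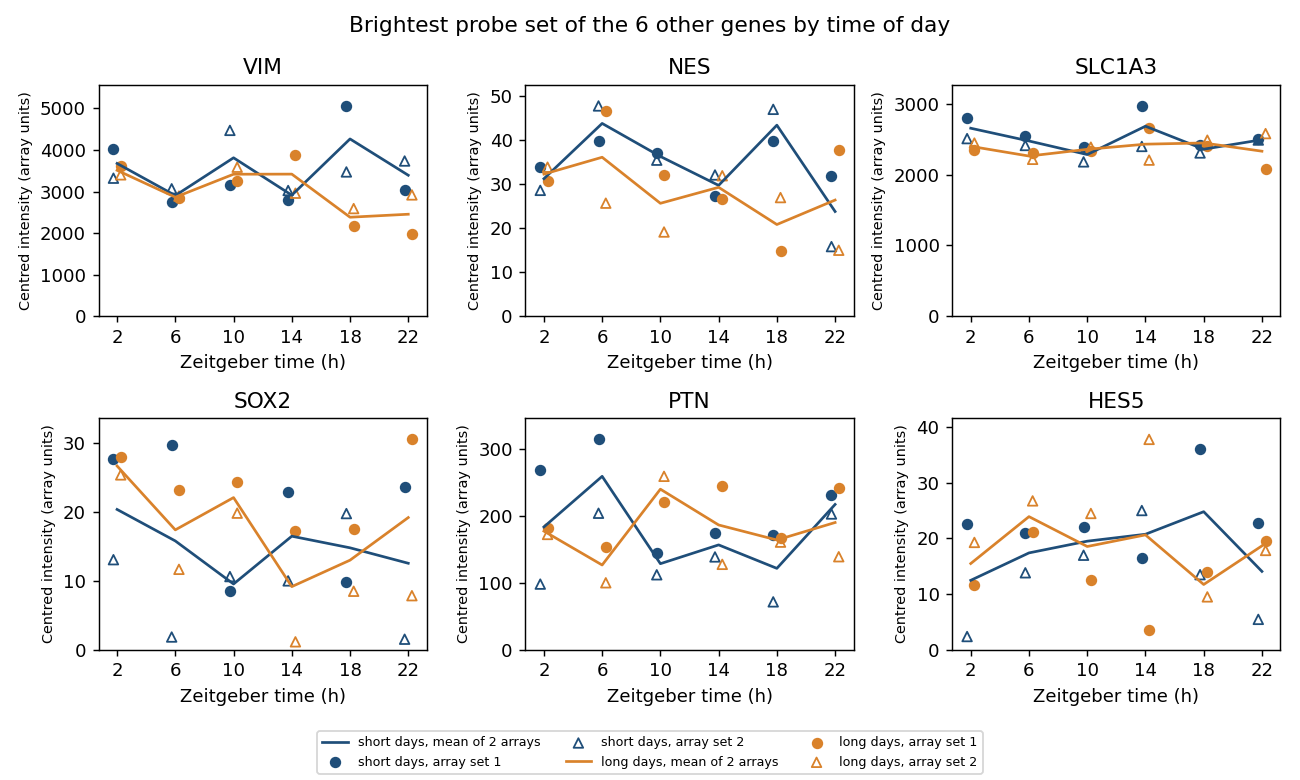
Centred intensity (array units, vertical axes) of the brightest probe set of VIM, NES, SLC1A3, SOX2, PTN and HES5 against zeitgeber time (h, horizontal axes), with blue for short days, orange for long days, filled circles for array set 1, open triangles for set 2 and lines through the mean of 2 arrays. VIM and NES are lowest in long days at ZT18, SLC1A3 stays between 2080 and 2970, and the PTN lines cross between ZT6 and ZT10, a turn that did not pass its test.

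As a group the 7 genes did not share a direction. By their brightest probe sets 4 were lower and 3 higher in long days, with a median of -0.070 against -0.014 over the 11830 genes tested, of which 52.2% were lower. FABP7 was the 1 gene with a lower long-day mean at all 6 times, a pattern found in 2.23% of probe sets. In 0 of the 7 were all long-day arrays below all short-day arrays, as they were in 0.0243% of probe sets. Relative to the other genes above background on 24 of 24 arrays, the FABP7 change was -0.73 for VIM, -0.88 for SLC1A3 and -1.03 for PTN. These values are only the differences between the changes given above, and they were not tested. Of 12 long-day arrays, 6 exceeded the lowest short-day ratio to VIM, 3 that to SLC1A3 and 5 that to PTN.

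At single times of day 0 of the 7 genes passed, whereas among all probe sets 0.00694% did at ZT2, and 0.0139% at ZT6 and as many at ZT10. The share was 0.0277% for ZT14, 0.0173% for ZT18 and 0.0104% for ZT22. At an unadjusted p under 0.05 in limma the 7 gave 2 genes at ZT6 (4.16% of all probe sets passed there) and 2 at ZT18 (4.12%). They gave 1 gene at ZT2 (4.08%), at ZT14 (5.41%) and at ZT22 (4.41%), and 0 at ZT10 (4.43%). In the tests of time of day by 6 free means, 0 of 7 passed in short days (0.0208% of probe sets did) and 0 of 7 in long days (0% did). A 24 h cosine gave the same shares of probe sets and 0 of 7 genes, and 0 of 7 passed the interaction (0.00694% of probe sets did). In each of these 5 tests 0 of the 7 had an unadjusted p under 0.05 in limma. Of all probe sets 3.7% and 3.42% had one by free means in short and long days. By the cosine 4.62% and 4.03% did, and by the interaction 3.31%, so 0 of 7 does not set these genes apart.

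The genes whose course was most like that of each member were found by Pearson's r over the 12 group means, among 11829 other genes. These are descriptions over points that share arrays and photoperiods. The best of so many genes can reach a high r by selection alone, so no shared regulation is shown. For FABP7 they were COLQ, the collagen tail of acetylcholinesterase (r = 0.973), MPRIP, which links myosin phosphatase to actin (r = 0.942), and NAP1L1, a nucleosome assembly protein (r = 0.934). Within the 6 short-day and the 6 long-day means, r was 0.87 and 0.81 for COLQ, 0.74 and 0.75 for MPRIP, and 0.78 and 0.52 for NAP1L1. COLQ was lower in long days by a log2 change of -0.97 ± 0.14 (limma adjusted p = 6e-04). MPRIP and NAP1L1 were at -0.31 ± 0.10 and -0.24 ± 0.072, without passing.

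For the 6 other genes the best r was lower, from 0.845 to 0.917. VIM was most like CDHR1, VPS13B and POLR3G (0.891, 0.863 and 0.849), and NES like SH2D2A, ELK3 and WBP4 (0.877, 0.87 and 0.866). SLC1A3 was most like MPHOSPH10, TET3 and SOCS5 (0.845, 0.833 and 0.828), and PTN like TOP1, ATAD2 and KCNG3 (0.886, 0.847 and 0.833). SOX2 was most like DGKQ, CRLF3 and FAM207A (0.917, 0.888 and 0.872), and HES5 like LYGL, FAAHL and WDR81 (0.91, 0.859 and 0.858). Of these genes, ATAD2 and LYGL were above background on 1 of 24 arrays each, CDHR1 on 6 and POLR3G, SH2D2A and TET3 on 8. TOP1 was so on 11 and CRLF3 and KCNG3 on 13, so the likeness of all these genes rests on dim values. SOX2 (13 of 24) and HES5 (14 of 24) were dim themselves, which limits each r given for them.

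Other genes of the same cells and pathways were taken from lists, where the brightest tested probe set stood for a gene. The lists were chosen with earlier results of these data known. Their counts of genes, set beside shares of probe sets, are thus descriptions and show no enrichment. As a measure for the counts below, 5.42% of all probe sets had an unadjusted p under 0.05 in the photoperiod test, and 52.2% of all genes had a negative change. Of 21 further tanycyte genes tested, 1 passed as higher in long days and 0 as lower, against 0.132% of all probe sets in either direction. At an unadjusted p under 0.05 in limma there were 2, while 12 had a positive change and the median was 0.062. The 1 was the deiodinase gene DIO2, whose enzyme activates thyroid hormone and which went from 63.0 ± 21.1 to 240 ± 36.7 (SD, n = 12) by 1.97 ± 0.14 (limma adjusted p = 9.7e-09). The tanycyte regulator LHX2, named outside the rule, was at -0.15 ± 0.23, and FGF18, IGFBP5 and the monocarboxylate transporter SLC16A1 were at 0.74 ± 0.29, 0.23 ± 0.12 and 0.295 ± 0.18 without passing.

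Among 29 further genes of radial glia and neural stem cells, 0 passed (4 at an unadjusted p under 0.05), 12 had a positive change and the median was -0.13. ID4, an inhibitor of helix-loop-helix factors, was at 897 ± 129 in short days against 682 ± 117 in long days, a change of -0.404 ± 0.11 (limma adjusted p = 0.28). NR2E1, a nuclear receptor of neural stem cells, was at -0.37 ± 0.13 and PAX6, a factor of radial glia, at 0.62 ± 0.21. The glial genes GFAP (-0.043 ± 0.17) and SOX9 (0.029 ± 0.17), named outside the rule, were near 0. They do not stand for the list. Also outside the rule, PROM1 was at -0.37 ± 0.22, TNC at -0.57 ± 0.41, S100B at -0.255 ± 0.32 and HOPX at 0.44 ± 0.32. These picks do not stand for the list either. EGFR, which completes the 4 genes at an unadjusted p under 0.05, was at 0.82 ± 0.37 and above background on 4 of 24 arrays.

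In the Notch pathway, which drives HES5, 0 of 21 tested genes passed (2 unadjusted) and 7 had a positive change, with a median of -0.15. The ligand gene DLL1 was at 80.2 ± 24.9 in short days against 53.5 ± 18.3 in long days, a change of -0.58 ± 0.20 (limma adjusted p = 0.63). The ligand gene JAG2 was at 1.11 ± 0.41 and above background on 6 of 24 arrays, and the receptor gene NOTCH2 was at -0.32 ± 0.20. Of 9 ligands, receptors and partners of pleiotrophin 0 passed (0 unadjusted) at a median of -0.024, with MDK, the related growth factor midkine, at -0.33 ± 0.24 and NCL at 0.209 ± 0.15. LRP1 was at 0.71 ± 0.39 but above background on 0 of 24 arrays, and the receptor gene PTPRZ1, named outside the rule, was at -0.18 ± 0.16. Of 10 SOX2 partners and targets 0 passed (0 unadjusted), 2 had a positive change and the median was -0.13, with LIN28A at -0.51 ± 0.30, SOX4 at -0.37 ± 0.23 and CHD7 at -0.16 ± 0.12.

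Genes of fatty acid handling gave 0 of 22 past the test (2 unadjusted), 7 positive and a median of -0.11. CRABP1, which binds retinoic acid and belongs to the same protein family as FABP7, was at 47.7 ± 12.3 in short days against 29.7 ± 8.35 in long days, a change of -0.67 ± 0.19 (limma adjusted p = 0.38). ELOVL5, an elongase of polyunsaturated fatty acids, was at -0.38 ± 0.12 (limma adjusted p = 0.48) and RBP5 at -0.25 ± 0.14. FABP3, the related gene of the heart and brain, was at 894 ± 120 and 922 ± 138, a change of 0.042 ± 0.11, and is named outside the rule. So are FABP6 at -0.31 ± 0.21, FABP4 at -0.104 ± 0.25 and FABP1 at 0.27 ± 0.41. They were above background on 23, 11 and 3 of 24 arrays. A test of FABP7 against these relatives was not made.

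Of 12 filament and cytoskeleton genes 0 passed (2 unadjusted), with TMSB4X, which binds actin monomers, at -0.27 ± 0.084 (limma adjusted p = 0.49), CRYAB, a small heat shock protein, at -0.25 ± 0.11 and RDX at 0.16 ± 0.18. Of 8 genes of glutamate uptake 0 passed (1 unadjusted), with the transporter SLC1A2 at 0.59 ± 0.22, SLC38A3 at -0.39 ± 0.21 and GLUL at 0.21 ± 0.19. Of 11 genes of retinoic acid handling 0 passed (1 unadjusted), with the synthesis enzyme ALDH1A1 at 0.51 ± 0.24, RBP4 at 0.72 ± 0.38 and ALDH1A2 at -0.28 ± 0.24. The medians of these 3 lists were 0.067, 0.015 and 0.16.

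**Figure D5:**
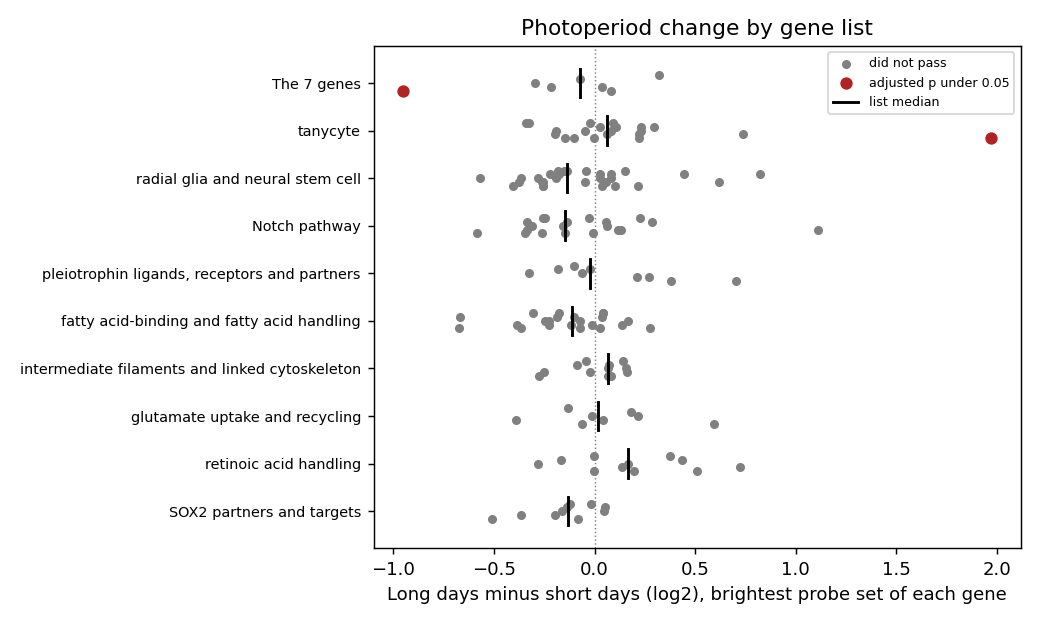
Photoperiod change (log2, long days minus short days, horizontal axis) of the brightest tested probe set of each gene, for the 7 genes and 9 further lists (rows), with list medians as black bars and genes past the test in red. FABP7 at -0.95 and DIO2 at 1.97 are the red points, and the list medians lie between -0.15 and 0.16.

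Beside the FABP7 result, markers of other cells of the region were summed. Oligodendrocyte genes had a positive change in 0 of 6 (median -0.18), choroid plexus genes in 1 of 8 (-0.20), microglia and immune genes in 1 of 7 (-0.23) and ependymal cilia genes in 2 of 9 (-0.13), with 0 genes past the limma test in these 4 lists and 0, 1, 2 and 1 at an unadjusted p under 0.05. Their summed levels ran from 6190 to 8650 in short days and 2700 to 8160 in long days for oligodendrocytes, and from 1270 to 1760 and 1060 to 1470 for choroid plexus. They ran from 539 to 1260 and 479 to 803 for microglia, and from 398 to 570 and 412 to 521 for ependyma. The means in short and long days were 7160 ± 787 and 6820 ± 1450 for oligodendrocytes and 1500 ± 188 and 1280 ± 125 for choroid plexus (SD, n = 12). For microglia they were 790 ± 212 and 620 ± 98.7, and for ependyma 494 ± 55 and 470 ± 38.1. Bright probe sets weigh most in such sums, which are not levels of a cell type. In short days MBP had a mean of 6750 in an oligodendrocyte sum of 7160. IGFBP2 had 1130 of 1500 for choroid plexus and IFT88 306 of 494 for ependyma. Each tested gene of these lists was above background on at least 1 array. Only 5 of 9 ependymal and 6 of 8 choroid plexus genes were so on 12 or more, which limits their counts of directions. Astrocyte genes (3 of 8 positive, median -0.032) and neuron genes (10 of 12, 0.075) had 0 past the test, as did endothelial genes (8 of 10, 0.24), each with 2 at an unadjusted p under 0.05. Hypothalamic genes had 4 of 12 positive (median -0.18), with POMC past the test and 3 at an unadjusted p under 0.05 (POMC, NPY and ISL1), and a summed level of 9190 ± 874 in short days against 8260 ± 594 in long days. Of 10 pituitary genes, POMC was lower and TSHB and CGA were higher in long days by that test. The part of cell composition in the FABP7 difference was not tested.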

How the data were processed

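The deposited intensity values are 1 linear value per probe set and array, and per the submitters' processing notes they came from GCOS 1.2. The sources used here do not give the algorithm's settings, its scaling or detection calls. Of 38535 probe sets 96 controls were left out. Values were put on a log2 scale after adding 1.497 (10% of the overall median of 14.97), and each array was centred on its median. The lowest 25% by mean were left out, which left 28829. limma 3.58.1 in R 4.3.3 fitted a mean for each of 12 groups with a variance trend (12 residual degrees of freedom), and a second fit held a 24 h cosine per photoperiod. Benjamini-Hochberg adjustment covered all tested probe sets at a threshold of 0.05. Per the labels, arrays of 1 group are biological replicates, and p-values of the 12-group fit reflect how pools vary, array sets included. Each array set alone was fitted with a photoperiod term and added terms for time, with 1 array a group. Its spread is thus how the photoperiod difference varies between times, which cannot be told apart there from how pools vary. In the cosine fit the spread also holds departures from the cosine.

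Symbols are those of the platform annotation and may be outdated. 27168 probe sets had 1 symbol, 177 several and 11094 none. Of the 7 symbols, 6 occur in the Coturnix japonica 2.1 gene table, all but HES5. The brightest tested probe set stands for a gene, and probe sets named _s_at or _a_at, which include those of VIM and NES, the brighter ones of HES5 and SLC1A3 and a dimmer one of PTN, can match several transcripts. The genes, lists and background measure were chosen with earlier results of these data known. Named were the 7 genes with all their probe sets, from each list the genes past the photoperiod test and up to 3 others with the smallest p, and 3 genes per member by likeness. The fits were tested on simulated data. Alternatives were other pseudocounts, scalings, filters and variance models, weighted arrays, a block for the replicate number, each array set alone, the mean of a gene's probe sets, and leaving out each array. The test of a difference between array sets was added after the data were seen. Sequences are not shown here.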

Additional observations from a re-analysis of the deposited data

How the results depend on the processing

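The FABP7 change stayed negative under all 37 alternatives, from -1.22 to -0.68, and from -1.06 to -0.845 when single arrays were left out. Its call was lost without centring (-0.984, limma adjusted p = 0.46, 0 of the 7 genes past the test). It was also lost in array set 1 alone (-0.682, limma adjusted p = 0.13, again 0 of 7). The call was kept under the other 35, but only just without the variance trend (limma adjusted p = 0.048). With a pseudocount of 16 the limma adjusted p was 0.019. Array set 2 alone kept the call (-1.22, limma adjusted p = 0.0064). The cause of either loss was not tested. The 38 probe sets past the photoperiod test became 12 without centring, 74 after quantile normalization, 76 with the replicate number as a block and 16 in set 2 alone, and 32 to 46 when single arrays were left out. Of those past the test, 57.9% were higher in long days with median centring, 75% without centring and 71.6% after quantile normalization. Directions turned for the brighter HES5 probe set (-0.0312 with a pseudocount of 16, -0.824 in set 1 alone, -0.21 to 0.287 without single arrays), the brighter SLC1A3 probe set (0.00156 after quantile normalization, 0.00216 in set 2 alone), the brightest PTN probe set (-0.0799 in set 1 alone, -0.0368 to 0.204 without single arrays) and a dimmer one (0.12 in set 1 alone). None of these passed the test in any of them.

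In the other tests 0 of the 7 genes passed under any of 34 alternatives. Counts over all probe sets moved more: at single times from 2 to between 1 and 27 (ZT2), from 4 to between 1 and 17 (ZT6), from 4 to between 2 and 72 (ZT10), from 5 to between 2 and 7 (ZT18), from 3 to between 2 and 20 (ZT22), and from 8 to between 2 and 344 at ZT14 (the latter when array 1 of long-day ZT14 was left out), and from 0 to as many as 93 for time of day in long days (without the same array). Time of day in short days moved from 6 to between 0 and 36, its cosine from 6 to between 2 and 11, and the interaction from 2 to between 0 and 32, while the cosine in long days stayed at 0. Deviations of same-numbered arrays from their group means correlated at 0.0315 to 0.0993 between photoperiods at the same time. Over all 66 pairs of groups they correlated at 0.01 to 0.103 (median 0.0448), a range that covers those values. The numbers were therefore not taken as pairs within a time. These correlations do not exclude a shift between the sets that all groups share, which the main fit leaves out and the block takes in. The block changed no call of the 7 genes (FABP7 adjusted p = 0.00019). SOX2, HES5 and the dimmest PTN probe set lay near background, which limits what can be said of them.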
